A study of Mus musculus with 24 samples.

Results

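This account compares how wild-type neuron cultures and wild-type astrocyte cultures from mouse changed their RNA under endoplasmic reticulum (ER) stress. It uses 12 of the 24 RNA-seq libraries of the series, chosen by their labels as every WT library, and all genes counted in them. All cells came from mice whose Perk gene is flanked by loxP sites. The WT cultures received a lentivirus with an inactive Cre (ΔCre), so WT here means Perk loxP/loxP cells with Perk intact, and the 12 Perk KO libraries received active Cre. The 4 WT groups, of 3 libraries each, were neurons in DMSO (control), neurons in tunicamycin (TM), astrocytes in DMSO and astrocytes in TM. The TM dose was 5 µg/mL and lasted 24 hours, on day 14 in vitro, in the same medium for both kinds of culture. The labels number the libraries of a group as biological replicates and do not say which cultures or animals they came from, so p-values measure how much these libraries scatter, and that scatter may be technical only.

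Tunicamycin blocks the first step of N-linked glycan synthesis, so glycoproteins misfold in the ER. Cells answer through sensors in the ER membrane. PERK (gene Eif2ak3) phosphorylates eIF2α, which lowers general translation and favours translation of ATF4, which in turn induces CHOP (Ddit3), amino acid genes and feedback genes. IRE1 (Ern1) splices Xbp1 mRNA and ATF6 is cleaved to a transcription factor, and these arms raise chaperones and ER degradation genes. Neurons depend on this system for secretory and synaptic proteins, and astrocytes for the large load of proteins they secrete. The quantity tested throughout is the difference between the responses: the log2 change of a gene with TM in neurons minus its log2 change in astrocytes, called the interaction. A positive value means that the change was more upward in neurons.

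The libraries held 16030022 to 20528319 counts each over 32728 genes, and levels are given as CPM, the usual depth-scaled count, on TMM-scaled library sizes. Neuron markers separated the cultures: 15 markers summed to 8060 to 8390 CPM in control neuron cultures and to 336 to 387 CPM in control astrocyte cultures. Astrocyte markers did not. Their 14 tested members summed to 4720 to 5070 CPM in control neuron cultures, above the 3040 to 4370 CPM of control astrocyte cultures, so the neuron cultures held as much astrocyte marker RNA as the astrocyte cultures. With TM, astrocyte markers fell to 1240 to 1340 CPM in neuron cultures and to 776 to 861 CPM in astrocyte cultures. In TM, neuron markers were at 3740 to 3840 CPM in neuron cultures and 306 to 409 CPM in astrocyte cultures. Fibroblast and mural markers were higher in control astrocyte cultures, at 1320 to 1460 CPM against 519 to 540 CPM, and 10 of them were tested. Microglia markers were at 65.8 to 98.0 CPM in control neuron cultures and reached 223 CPM in the first astrocyte control library, against 68.8 and 88.8 CPM in the others. That astrocyte control library also moved several counts more than any other when it was left out. In cultures like these, fewer cells of a type and less RNA per cell cannot be told apart, and the part of culture makeup in the differences below was not tested. Below, neurons and astrocytes stand for the whole neuron cultures and astrocyte cultures, not for cells of a single type.

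**Figure D1:**
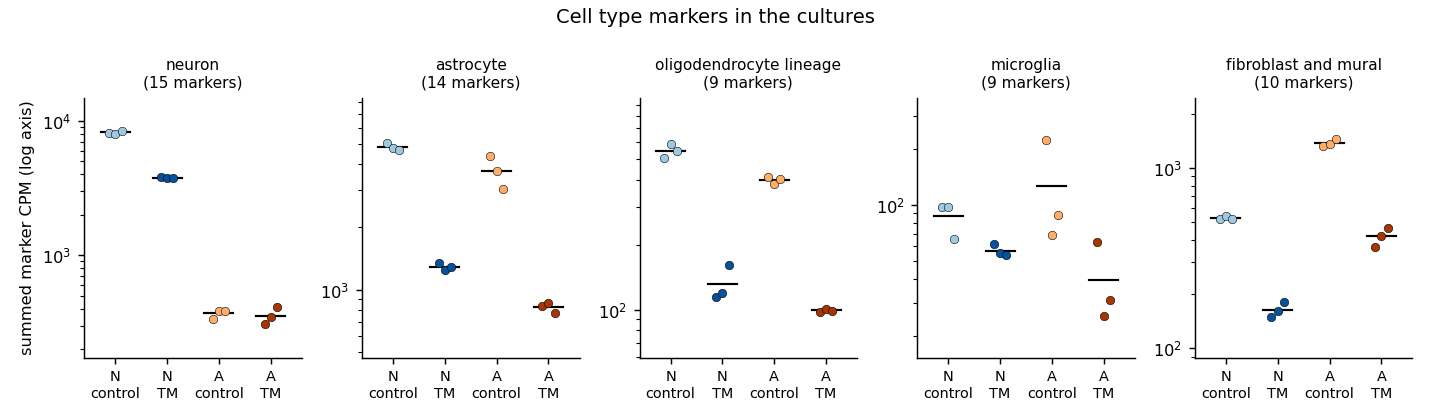
Summed marker levels (CPM, log axis) in each of the 12 WT libraries, by cell type of the markers, for neuron (N) and astrocyte (A) cultures in control and TM. Points are libraries and bars are means of 3. Neuron markers are 8060 to 8390 CPM in control neuron cultures and 336 to 387 CPM in control astrocyte cultures, whereas astrocyte markers are at like levels in both.

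Of 15712 genes tested, 3917 differed in their TM response between the cultures (24.9%, edgeR quasi-likelihood test, Benjamini-Hochberg adjusted p under 0.05). The change was more upward in neurons for 1947 genes (12.4%) and more upward in astrocytes for 1970 genes (12.5%). By size, 1224 of the first and 645 of the second differed more than 2-fold. TM alone changed 7555 genes in neurons (48.1%; 2940 rose, 4615 fell) and 8388 in astrocytes (53.4%; 3871 rose, 4517 fell). The share on each side depends on how the libraries are scaled. With TMM scaling computed within each kind of culture, all interactions shift up by a median of 0.17 log2, and 2732 genes are more upward in neurons and 1210 in astrocytes. Values below are on the common scaling, and differences near 0.17 should be read against that shift. Counts of called members in the gene lists below should be read against the shares of all tested genes. These are 12.4% more upward in neurons and 12.5% more upward in astrocytes. For the response of each culture, 18.7% of all tested genes rose and 29.4% fell in neurons, and 24.6% rose and 28.7% fell in astrocytes. Testing every gene with at least 1 count also moved the split, to 2663 more upward in neurons and 1190 in astrocytes. Without the first astrocyte control library the split was 2130 and 1219, and the median interaction of all genes was 0.08 in place of −0.02. List counts given below without that library should be read against this split.

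The 2 responses had much in common. Across the 12803 genes with at least 20 counts on average in each kind of culture, they correlated at r = 0.67, as a description across genes, which are not independent replicates. For 548 genes the rise passed the test in both cultures and the 95% interval of the interaction lay within 1.5-fold, and for 386 genes the same held for a fall. Among the alike genes that rose were Creld2, an ER chaperone, Nans, a sialic acid synthase, Selenos, a degradation factor, and Alg12, a mannosyltransferase of glycan assembly. Among those that fell alike were Fgfrl1, Ntn4, Lynx1 and Lxn.

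The differing genes fell into several patterns. A rise in both cultures that was larger in neurons was seen for 164 genes, and a rise in both that was larger in astrocytes for 181. A rise passed the test in neurons but no change did in astrocytes for 315 genes, and the reverse was so for 681. On the downward side, 136 fell in both but more in neurons, 547 fell in both but more in astrocytes, 608 had a called fall in neurons and no called change in astrocytes, and 746 the reverse. Opposite directions were called for 150 genes that rose in neurons and fell in astrocytes and for 323 that fell in neurons and rose in astrocytes. For the remaining 66 differing genes neither response passed the test. With the replicate number as a block, the falls in both become 210 and 829. Without the first astrocyte control library, 110 genes rose in both but more in astrocytes, 479 rose with a call in neurons alone, 374 in astrocytes alone, 79 fell in both but more in neurons and 174 fell in neurons and rose in astrocytes. The 181 become 109 to 116 without the first neuron control library or any neuron TM library, the 150 become 97 without the first neuron control library, and the 136 become 89 and 81 without the second neuron TM or the second astrocyte TM library.

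**Figure D2:**
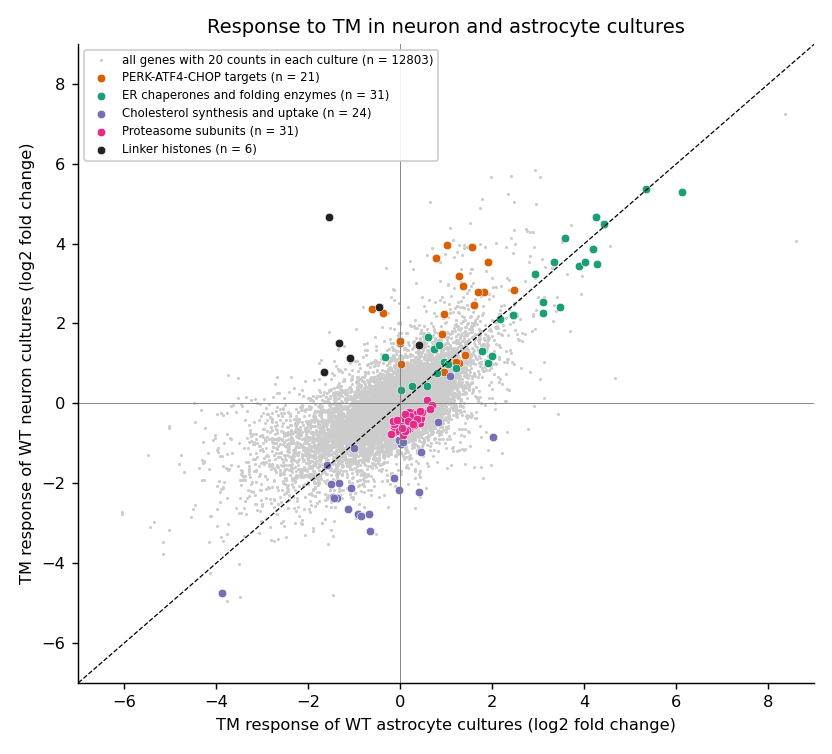
TM response of neuron cultures (vertical) against that of astrocyte cultures (horizontal), each as log2 fold change, for 12803 genes in grey and 5 gene lists in colour; the dashed line marks equal responses. Most targets of the PERK arm lie above the line, most cholesterol and proteasome genes below it, and ER chaperones on both sides of it.

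Sequences are shown first for the 2 branches that behaved differently, each with the promoter element known for its factors. The RefSeq promoter windows used (GRCm38.p6, the build of the deposited tables) run from 250 bases before to 50 after a gene's start and were matched for 11326 of the tested genes (72.1%). The ER stress element, bound by ATF6 and XBP1 with partner factors, was searched on both strands as CCAAT, then 9 bases of any kind, then CCACG. It occurred in 7 of 27 chaperone genes with a window (25.9%) and in 0.168% of tested genes. The C/EBP-ATF response element, bound by ATF4 and CHOP with partners, was searched as TGATGNAAN on both strands. It occurred in 7 of 16 PERK-arm target genes with a window (43.8%), in 3 of 27 chaperone genes (11.1%), in 2 of 17 ER-associated degradation genes (11.8%) and in 2.77% of tested genes. The ER stress element was in 0 of the 16 PERK-arm genes and 2 of the 17 degradation genes (11.8%). Neither search pattern contains the other. The share with the C/EBP-ATF response element was 9.63% (13 of 135) for genes that rose in both cultures but more in neurons. It was 1.41% (2 of 142) for those that rose more in astrocytes. For the ER stress element these shares were 0 of 135 and 2.11% (3 of 142). In other patterns the C/EBP-ATF share was 5.77% (6 of 104) for genes that fell in both but more in neurons. It was 3.32% (8 of 241) for genes that rose in neurons with no call in astrocytes. For genes that rose in neurons and fell in astrocytes it was 0.909% (1 of 110). The patterns and the gene lists can share genes, so their shares are not separate evidence. A sterol element was searched too and was matched in 0 of 17 cholesterol genes with a window, beside 0.203% of tested genes, which says only that those letters are not in these windows. A match describes letters in the window and is no measured binding site. The first 4 lines below are chaperone or degradation genes and the rest are genes of the PERK arm, 5′ to 3′ on the gene's strand, with the matched element (or its reverse complement) in capitals.
Hspa5 (chr2:34772005-34772063, plus strand): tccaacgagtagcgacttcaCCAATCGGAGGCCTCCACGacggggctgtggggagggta
Creld2 (chr15:88819500-88819558, plus strand): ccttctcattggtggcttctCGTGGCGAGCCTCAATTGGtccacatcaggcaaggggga
Dnajc3 (chr14:118937807-118937865, plus strand): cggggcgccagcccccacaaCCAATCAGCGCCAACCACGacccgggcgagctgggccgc
Syvn1 (chr19:6046512-6046570, plus strand): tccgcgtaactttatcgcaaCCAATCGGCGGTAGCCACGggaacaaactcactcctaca
Chac1 (chr2:119351028-119351076, plus strand): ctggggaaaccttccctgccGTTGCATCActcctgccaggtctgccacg
Atf3 (chr1:191183416-191183464, minus strand): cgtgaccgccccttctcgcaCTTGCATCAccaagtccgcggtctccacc
Nupr1 (chr7:126625553-126625601, minus strand): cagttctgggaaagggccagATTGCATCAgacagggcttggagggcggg
Fgf21 (chr7:45615602-45615650, minus strand): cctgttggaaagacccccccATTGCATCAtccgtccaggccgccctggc
Asns (chr6:7693210-7693252, minus strand): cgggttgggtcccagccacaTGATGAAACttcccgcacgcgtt

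Targets of the PERK arm rose more in neurons. Of 21 tested targets of PERK, ATF4 and CHOP, all 21 rose in neurons (18.7% of all tested genes rose there and 29.4% fell) and 16 rose and 2 fell in astrocytes (24.6% and 28.7% of all). The median change was 2.36 log2 in neurons and 1.21 in astrocytes, beside −0.13 and −0.01 over all tested genes. The interaction passed the test for 15 of the 21, all more upward in neurons (12.4% of all tested genes), with a median of 1.28 beside −0.02. The exceptions, for which no difference passed, were Asns, Vldlr, Ero1l, Slc7a11, Psat1 and Sqstm1. Asns, the asparagine synthetase whose promoter is shown above, changed by 1.22 in neurons and 1.41 in astrocytes. The list of targets was known from earlier results of these libraries, so its count is not independent evidence of direction.

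The sensor and factor upstream of these targets did not show that gap. Eif2ak3 was at 33.8 to 39.4 CPM in control neurons and 125 to 140 CPM in TM, and at 24.1 to 26.9 and 70.3 to 101 CPM in astrocytes, with an interaction of 0.08 ± 0.18 (log2 ± SE, adjusted p = 0.805). Atf4 was at 246 to 270 and 659 to 725 CPM in neurons and at 238 to 394 and 1090 to 1170 CPM in astrocytes, with an interaction of −0.38 ± 0.21 (adjusted p = 0.199). For neither gene did the groups overlap between control and TM. The mRNA of Atf4 does not report its translation.

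CHOP and its neighbours are given per library. Ddit3 (chr10:127290774-127296288) was at 50.9, 48.2 and 50 CPM in control neurons and 1050, 966 and 888 CPM in TM. Astrocytes held 125, 168 and 208 CPM in control and 1480, 1110 and 1110 CPM in TM. In control and in TM, every astrocyte library was thus above every neuron library, by a smaller log2 distance in TM. The response was 4.28 log2 in neurons and 2.88 in astrocytes, an interaction of 1.40 ± 0.24 (adjusted p = 0.00128).

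Atf3, a stress-induced transcription factor, was at 8.39, 6.23 and 6.68 CPM in control neurons and 168, 161 and 161 CPM in TM. In astrocytes the values were 129, 236 and 261 CPM and then 449, 667 and 678 CPM. Control astrocytes overlapped with TM-treated neurons, and the interaction was 3.00 ± 0.34 (adjusted p = 0.000101). Trib3 (chr2:152337422-152344032), a pseudokinase that restrains ATF4 and CHOP, was at 6.24, 4.98 and 5.13 CPM in control neurons and 89.1, 75.3 and 83.0 CPM in TM. The astrocyte libraries stood at 71.9, 72.6 and 96.0 CPM and then 243, 236 and 232 CPM. Its TM levels in neurons lay within the range of its control levels in astrocytes, with an interaction of 2.35 ± 0.19 (adjusted p = 9.98e-06).

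Gdf15 (chr8:70629393-70632456), a secreted stress hormone, was at 5.43, 4.82 and 6.14 CPM in control neurons and 62.0, 66.3 and 74.6 CPM in TM. In astrocyte cultures its level was 33.6, 56.4 and 64.9 CPM and then 82.4, 91.0 and 90.7 CPM. The 2 cultures differed by −3.24 log2 in control and by −0.38 in TM (neurons minus astrocytes, adjusted p = 1.84e-08 and 0.0861), and the interaction was 2.86 ± 0.28 (adjusted p = 4.29e-05). Ppp1r15a, the phosphatase subunit that reverses eIF2α phosphorylation, differed by 1.62 ± 0.29 and Chac1, a glutathione-degrading enzyme, by 1.89 ± 0.27 (adjusted p = 0.00193 and 0.000392). Across the 21 targets, 17 were lower in neurons than in astrocytes in control, with a median of −2.31, and 14 were lower and 3 higher in TM, with a median of −0.71 (35.8% and 36.2% of all tested genes were lower). Those level contrasts were added after the data were seen, and they share libraries with the interaction.

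Some members moved in opposite directions. Bbc3 (chr7:16308393-16318205), which encodes the death-promoting BCL2 protein PUMA, was at 24.4, 23.9 and 19.7 CPM in control neurons and 101, 109 and 118 CPM in TM. Astrocyte levels were 54.3, 58.9 and 68.4 CPM and fell to 41.6, 47.9 and 50.9 CPM. The groups did not overlap in either culture, and the interaction was 2.64 ± 0.18 (adjusted p = 3.60e-06). Ndrg1, a stress-responsive growth regulator, rose by 2.36 in neurons and fell by 0.62 in astrocytes, with an interaction of 2.98 ± 0.23 (adjusted p = 8.56e-06). Pmaip1, which encodes the related protein NOXA, rose by 1.57 in neurons and was at 97.0 to 164 CPM in control and 94.0 to 180 CPM in TM-treated astrocytes. Of the 14 tested BCL2 family genes, Bbc3 and Pmaip1 were more upward in neurons and Bcl2l2 in astrocytes, shares near those of all tested genes (12.4% and 12.5%). The count of 2 in neurons becomes 4 without the first astrocyte TM library.

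**Figure D3:**
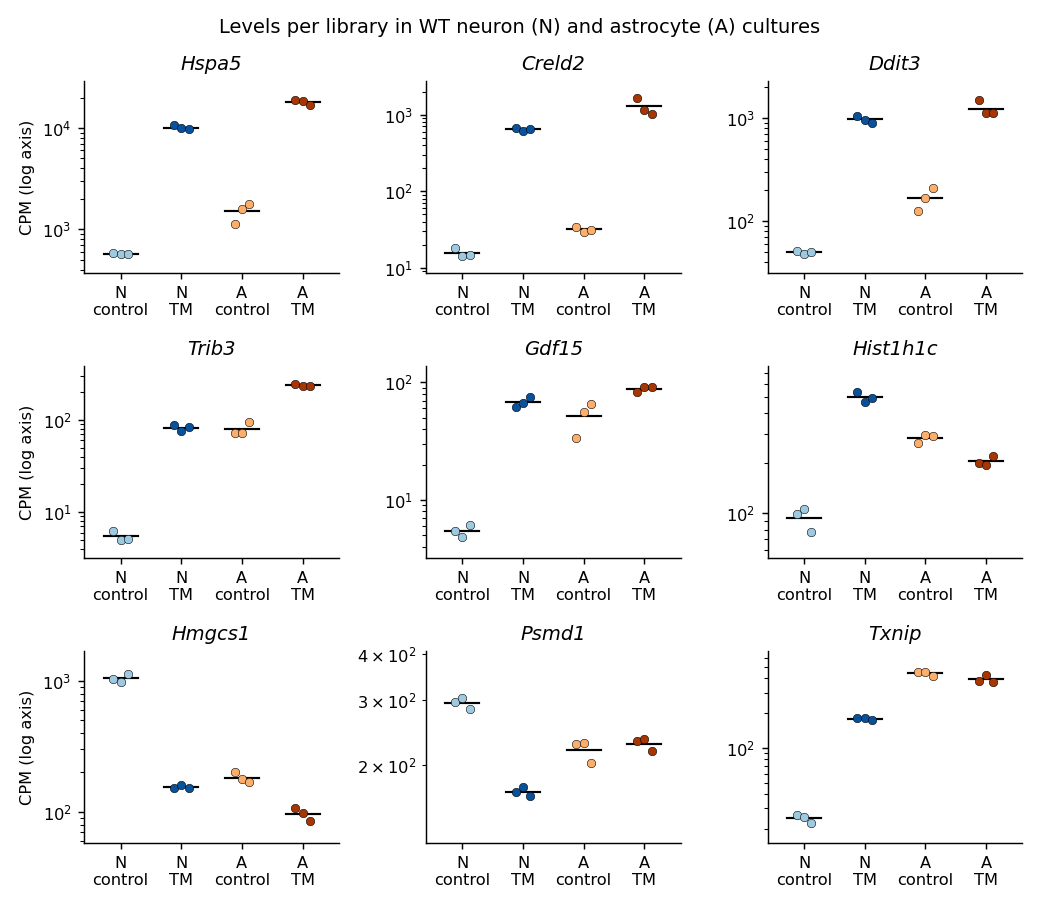
Levels of 9 genes (CPM, log axis) in each WT library of neuron (N) and astrocyte (A) cultures; points are libraries and bars are means of 3. Ddit3, Trib3 and Gdf15 start lower in control neurons than in control astrocytes, Creld2 rises alike, Hmgcs1 falls further in neurons, Psmd1 falls in neurons, and Hist1h1c and Txnip rise in neurons.

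Most ER chaperones rose in both cultures, with like medians, though single members differed. Of 31 tested chaperones and folding enzymes, 30 rose in neurons and 28 in astrocytes, with medians of 2.20 and 2.45 log2. The interaction passed for 8, with 2 more upward in neurons and 6 in astrocytes, a share near that of all tested genes (24.9%), and its median was −0.04. Under TMM within each kind of culture the split was 5 and 4, and with the replicate block 5 and 7. The 2 become 5 without the first astrocyte TM library and 1 without any of 7 others. Hspa5 (BiP, the main ER chaperone) was at 579, 573 and 571 CPM in control neurons and 10600, 9930 and 9710 CPM in TM. Astrocytes held 1120, 1590 and 1790 CPM and then 18800, 18300 and 16700 CPM. In each condition every astrocyte library was above every neuron library, and the response was 4.13 in neurons and 3.58 in astrocytes. That difference, 0.55 ± 0.21, missed the threshold (adjusted p = 0.0673), but it passed with TMM computed within each kind of culture (adjusted p = 0.0230) and without the first astrocyte control library (adjusted p = 0.00164).

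Creld2 went from 17.8, 14.0 and 14.5 CPM to 666, 614 and 640 CPM in neurons and from 34.4, 29.6 and 31.4 CPM to 1660, 1150 and 1030 CPM in astrocytes. The interaction was 0.04 ± 0.23, with a 95% interval from −0.44 to 0.53. Hyou1, a large ER chaperone, and Sdf2l1, a BiP partner, rose more in astrocytes, with interactions of −0.80 ± 0.21 and −0.84 ± 0.23 (adjusted p = 0.0138 and 0.0179). Both lose the call without the first astrocyte control library (adjusted p = 0.0504 and 0.0575), and without it the count of chaperones more upward in astrocytes drops from 6 to 3. Ero1lb, an ER oxidase, and Txndc11 also rose more in astrocytes, with interactions of −1.08 ± 0.21 and −0.91 ± 0.16 (adjusted p = 0.00257 and 0.00149).

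The other UPR factors split. Xbp1 (chr11:5520659-5525893) was at 97.4, 93.2 and 76.1 CPM in control neurons and 271, 254 and 272 CPM in TM. In astrocytes the values were 67.4, 83.8 and 97.4 CPM and then 377, 549 and 553 CPM. Control levels overlapped and TM levels did not, and the interaction was −0.99 ± 0.23 (adjusted p = 0.00821). These counts do not separate spliced from unspliced Xbp1 mRNA. Of 15 tested sensors and factors, 7 were more upward in neurons (12.4% of all tested genes), including Ddit3, Atf3, Cebpb and Nupr1. Xbp1 and Atf6b were the 2 more upward in astrocytes (12.5% of all), and the median interaction was 0.52. The count of 2 is 1 without any of 10 libraries. Atf6b, at −0.46 ± 0.16 (adjusted p = 0.0475), misses the threshold with TMM computed within each kind of culture (adjusted p = 0.188). Ern1 and Atf6 showed no called difference, at 0.26 ± 0.19 and −0.23 ± 0.15.

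Most hexosamine genes were more upward in astrocytes. The counts for ER-Golgi transport, ER-associated degradation and N-glycan genes depended on the scaling. The 6 tested genes of the hexosamine pathway, which makes the sugar donor of N-glycans, had a median interaction of −0.92 and 4 were called, all more upward in astrocytes (12.5% of all tested genes). Gfpt1, its first and rate-limiting enzyme, was at 144, 157 and 173 CPM in control neurons and 455, 499 and 491 CPM in TM. The astrocyte libraries stood at 108, 106 and 94.2 CPM and then 758, 591 and 469 CPM, and the interaction was −0.95 ± 0.21 (adjusted p = 0.00568). Of 34 ER-Golgi transport genes, 11 were more upward in astrocytes and none in neurons, with a median of −0.44. That count is 6 under TMM within each kind of culture, where 1 was more upward in neurons and the median was −0.27. It is also 6 without the first astrocyte control library. Of 24 ER-associated degradation genes, 7 were more upward in astrocytes, including Vcp, the ATPase that extracts substrates, at −0.77 ± 0.16, and Selenok at −0.93 ± 0.18 (adjusted p = 0.00480 and 0.00306). Under TMM within each kind of culture, 5 of the 24 were more upward in astrocytes and 4 in neurons, with a median of −0.09 in place of −0.26. Among 27 N-glycan genes, 4 were more upward in astrocytes, led by Alg2, and 2 in neurons, Tusc3 among them, which is near the shares of all tested genes (12.5% and 12.4%). Under TMM within each kind of culture 2 were called in each direction. The 4 become 2 without the third astrocyte control or the third neuron TM library, and the 2 become 1 without any of 8 libraries.

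**Figure D4:**
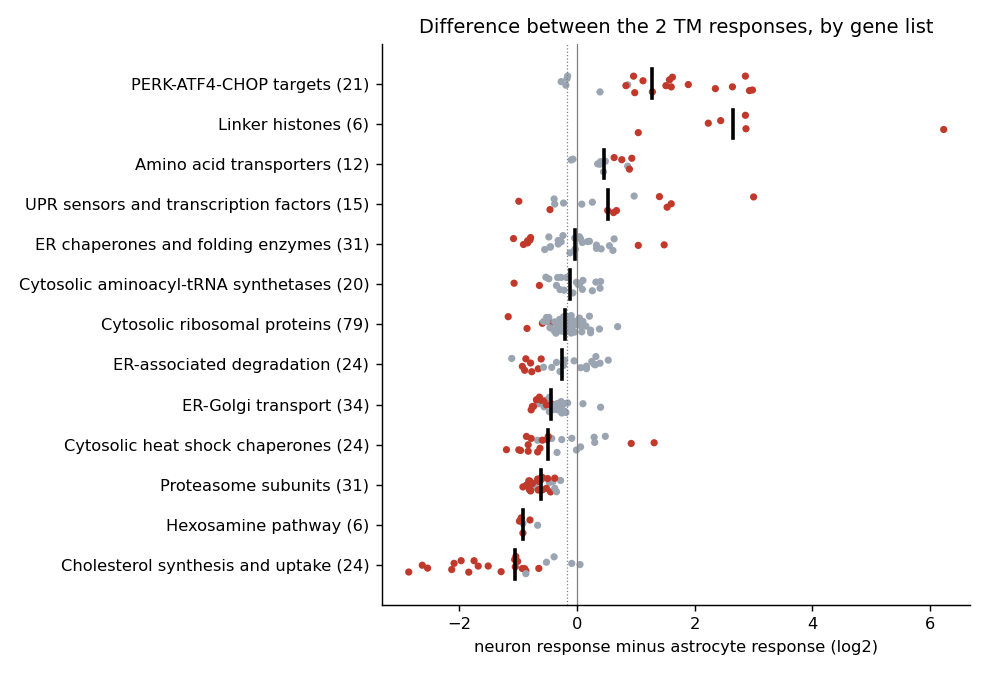
Interaction (neuron response minus astrocyte response, log2) of each tested member of 13 gene lists, with the number of members in parentheses. Red points passed the test and grey points did not, black bars are medians, the solid line is 0 and the dotted line is the value that becomes 0 when TMM is computed within each kind of culture. Most PERK-arm targets and all linker histones lie to the right, and most proteasome and cholesterol genes to the left.

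Cytosolic protein quality control differed in direction. Of 31 proteasome subunits, 23 fell in neurons (29.4% of all tested genes) and none rose. In astrocytes 11 rose (24.6% of all) and none fell. The medians were −0.45 in neurons and 0.19 in astrocytes. The interaction was called for 25, all more upward in astrocytes (12.5% of all tested genes), with a median of −0.62. Psmd1 (chr1:86064387-86139151), a base subunit of the 19S cap, was at 296, 303 and 283 CPM in control neurons and 169, 174 and 164 CPM in TM. In astrocyte cultures its level was 227, 229 and 202 CPM and then 232, 235 and 218 CPM. Neuron groups did not overlap and astrocyte groups did, with an interaction of −0.86 ± 0.12 (adjusted p = 0.000426). The count of 25 is 16 under TMM within each kind of culture, 12 with every gene tested and 16 without the first astrocyte control library, and the median stays at −0.46 under the first of these.

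Among 24 cytosolic heat shock chaperones, 13 fell and 2 rose in neurons, and 5 fell and 11 rose in astrocytes. The interaction was called for 12 more upward in astrocytes and 2 in neurons (12.5% and 12.4% of all tested genes), with a median of −0.50. Stip1, which links HSP70 to HSP90, was at 368, 360 and 306 CPM and then 228, 214 and 224 CPM in neurons. Astrocyte levels were 233, 229 and 247 CPM and then 354, 335 and 359 CPM, with an interaction of −1.20 ± 0.13 (adjusted p = 8.83e-05). The exceptions were Hspa1a and Hspb8, which fell in astrocytes. Among 15 mitochondrial chaperones and proteases, 6 were more upward in astrocytes (12.5% of all tested genes), led by Hspd1 (HSP60) at −1.31 ± 0.13 (adjusted p = 5.44e-05). That count is 3 under TMM within each kind of culture, where the median is −0.24 in place of −0.40.

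Amino acid supply genes mostly rose in both cultures. Amino acid transporters (12 tested) rose in 11 cases in each culture, and 4 were more upward in neurons, led by Slc6a9 at 0.89 ± 0.18 and Slc3a2, the heavy chain shared by several transporters, at 0.93 ± 0.21 (adjusted p = 0.00419 and 0.00624). The count of 4 becomes 9 without the first astrocyte control library and 2 without the second or the third, the third astrocyte TM library or the second or the third neuron TM library. Of 14 synthesis and one-carbon enzymes, 12 rose in neurons and 13 in astrocytes. Shmt2, Cth and Pycr1 were more upward in neurons and Got1 and Gpt2 in astrocytes, though Pycr1 and Gpt2 lose the call with single libraries left out (largest adjusted p = 0.0556 and 0.117), and the count of 3 becomes 8 without the first astrocyte control library. Got1, the cytosolic aspartate aminotransferase, was at 285 to 323 CPM in control neurons and 288 to 312 CPM in TM, and went from 57.4 to 84.6 CPM up to 244 to 261 CPM in astrocytes. Its interaction was −1.88 ± 0.18 (adjusted p = 2.89e-05).

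Of 20 cytosolic aminoacyl-tRNA synthetases, which charge tRNAs, 15 rose in neurons and 17 in astrocytes, and Hars and Farsb were the 2 called, both more upward in astrocytes. Under TMM within each kind of culture 2 were called in each direction, and the 2 become 4 without the third astrocyte control or the first astrocyte TM library. Of 79 ribosomal protein genes, 36 rose in neurons and 58 in astrocytes (18.7% and 24.6% of all tested genes). The interaction was called for 5, all more upward in astrocytes, a share below the 12.5% of all genes, and under TMM within each kind of culture 1 was called in each direction. The count of 5 becomes 14 without the third neuron control library and 1 to 3 without any of 7 others. Of 42 translation factors, 15 rose and 6 fell in neurons and 31 rose and 1 fell in astrocytes. Among them 9 were more upward in astrocytes and Eif4ebp1 and Eef1a2 in neurons (12.5% and 12.4% of all tested genes), and the 9 become 14 without the third neuron control library.

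Cholesterol genes fell further in neurons. Of 24 tested genes of synthesis and uptake, 23 fell and 1 rose in neurons (29.4% and 18.7% of all tested genes). In astrocytes 14 fell and 4 rose (28.7% and 24.6% of all). The medians were −2.07 in neurons and −0.77 in astrocytes. The interaction was called for 19, all more downward in neurons (12.5% of all tested genes), with a median of −1.06. Under TMM within each kind of culture it was also called for 19. Hmgcs1 (chr13:119690379-119708260), which makes the precursor of mevalonate, went from 1030, 990 and 1140 CPM to 152, 160 and 153 CPM in neurons. In astrocytes it went from 201, 177 and 170 CPM to 107, 98.0 and 85.0 CPM. The groups did not overlap in either culture, and the interaction was −1.84 ± 0.15 (adjusted p = 1.19e-05). Mvd, the decarboxylase of the mevalonate pathway, fell by 0.85 in neurons and rose by 2.02 in astrocytes. All 24 genes were higher in control neurons than in control astrocytes (37.2% of all tested genes), with a median of 2.04 log2, and 18 were higher in TM (35.0% of all), with a median of 0.78. Acly, Fasn and Acaca, which make fatty acids, fell in neurons and rose in astrocytes, and were the 3 of 16 fatty acid genes with a called interaction.

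Linker histone genes showed the reverse pattern. All 6 tested members rose in neurons, and in astrocytes 5 fell and H1f0 rose. The interaction was called for all 6, more upward in neurons (12.4% of all tested genes), with a median of 2.65. Hist1h1c (chr13:23738808-23740367) was at 99.8, 106 and 77.1 CPM in control neurons and 534, 466 and 495 CPM in TM. In astrocytes the values were 263, 297 and 293 CPM and then 202, 196 and 220 CPM, and the interaction was 2.87 ± 0.17 (adjusted p = 1.31e-06). Hist1h1d had an interaction of 6.23 ± 0.41 at low levels, 0.650 to 0.877 CPM in control neurons and 18.3 to 23.9 CPM in TM. These genes are near-identical copies in places, so reads could be split between them. Txnip (chr3:96557957-96561883), a thioredoxin-binding protein that responds to glucose and stress, was at 26.0, 25.3 and 22.5 CPM in control neurons and 181, 183 and 174 CPM in TM. The astrocyte libraries stood at 455, 454 and 417 CPM and then 381, 425 and 374 CPM, with an interaction of 3.03 ± 0.13 (adjusted p = 1.51e-07).

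Of 15 tested neuron markers, 2 rose and 4 fell in astrocyte cultures with TM, and none rose and 14 fell in neuron cultures. In astrocyte cultures many of these markers were near the floor. There, 6 averaged under 1 CPM in control and 7 in TM, and only 7 of the 15 averaged at least 20 counts in each kind of culture. Tubb3 (chr8:123411424-123422015), a neuronal tubulin and 1 of the 2 that rose, was at 1050, 1050 and 869 CPM in control neurons and 349, 312 and 352 CPM in TM. In astrocyte cultures it was at 16.5, 22 and 21.9 CPM and then 84.7, 70.8 and 82.4 CPM, with an interaction of −3.53 ± 0.19 (adjusted p = 6.19e-07). Hid1, a trans-Golgi protein of dense-core vesicles, was at 12.4 to 12.8 CPM in control astrocytes and 102 to 115 CPM in TM, against 105 to 133 and 241 to 255 CPM in neurons. Wfs1, an ER membrane protein, was at 37.4 to 47.7 and 203 to 225 CPM in astrocytes and 244 to 292 and 320 to 357 CPM in neurons. With Syt4 and Impdh1, these 2 had the largest interactions, by the naming rule, among genes that rose in both cultures but more in astrocytes. Dok5, an adaptor protein, did not change past the test in neurons and rose by 2.91 in astrocytes.

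Some other neuronal genes fell more in astrocyte cultures. Sez6, a neuronal surface protein, was at 178, 211 and 225 CPM in control neurons and 78.5, 85.7 and 86.8 CPM in TM. In astrocyte cultures it was at 78.2, 50.3 and 65.8 CPM and then 1.55, 1.57 and 1.22 CPM, and the interaction was 4.19 ± 0.25 (adjusted p = 1.25e-06). Camk2a, a synaptic kinase, and Eef1a2, a neuronal elongation factor, had interactions of 2.82 ± 0.33 and 2.47 ± 0.22. Of 31 tested synaptic genes, all 31 fell in neurons (29.4% of all tested genes), and 17 fell (28.7% of all) and none rose in astrocytes. Of the 31, 7 were more upward and 6 more downward in neurons (12.4% and 12.5% of all tested genes). Only 22 of them averaged at least 20 counts in each kind of culture. Of the neuron markers, 15 tested, 7 were more downward in neurons (12.5% of all tested genes). Rbfox3 was more upward (12.4% of all), and it averaged under 1 CPM in TM-treated astrocyte cultures. The 7 become 4 without the first astrocyte control, the second astrocyte TM or the first neuron TM library.

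Glial and inflammatory genes are the last group. Gfap, the astrocyte filament protein, was at 780, 877 and 717 CPM in control neuron cultures and 310, 284 and 255 CPM in TM. In astrocyte cultures it was at 680, 734 and 378 CPM and then 25.9, 45.4 and 20.6 CPM, with an interaction of 2.80 ± 0.39 (adjusted p = 0.000342). Glul and Slc1a2, which handle glutamate, went the other way, at −0.78 ± 0.16 and −1.69 ± 0.33. Of 14 tested astrocyte markers, 5 were more upward and 3 more downward in neuron cultures (12.4% and 12.5% of all tested genes). The fall in astrocyte markers was thus not uniform. Of 34 reactive astrocyte genes, 17 fell and 7 rose in neuron cultures, and 18 fell and 5 rose in astrocyte cultures. Their medians were −0.68 and −0.86. For the interaction, 12 were more upward in neuron cultures (12.4% of all tested genes) and Fkbp5 more downward (12.5% of all). The 12 become 15 under TMM within each kind of culture and 17 with the replicate number as a block. Of 21 NF-kB and cytokine genes, 7 were more upward in neuron cultures (12.4% of all tested genes) and Nfkbiz more downward (12.5% of all). The first count is 12 with the replicate number as a block and 11 under TMM within each kind of culture. It is also 11 without the first astrocyte control or the third astrocyte TM library. Nfkbiz, at −0.86 ± 0.29, loses the call without any of 7 libraries (largest adjusted p = 0.144). All 21 were lower in neuron cultures than in astrocyte cultures in both conditions (35.8% of all tested genes in control and 36.2% in TM). Of 22 interferon-stimulated genes, 13 fell in neurons and 20 in astrocytes (29.4% and 28.7% of all tested genes). Bst2 was the 1 called for the interaction, or 6 with the block.

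The Perk KO libraries show how far the interaction differs without Perk. In them Eif2ak3 was at 5.05 to 8.04 CPM in control and 9.33 to 16.7 CPM in TM, scaled to the library total, below every WT library at 25.7 to 148 CPM. In a fit over all 24 libraries and 15924 genes, the interaction was called for 4509 genes in WT (28.3%) and 1956 in Perk KO (12.3%). The Perk KO count is 3082 with the replicate block, 1291 without the first neuron Perk KO control library and 1269 without the second astrocyte Perk KO TM library. The difference between the 2 interactions was called for 878 genes (5.51%), or 1560 with the replicate block. Of the 878, 546 (3.43%) were more positive in WT and 332 (2.08%) more negative. That split depends on the method: it is 736 and 795 with DESeq2, 494 and 422 with DESeq2's size factors, 482 and 164 with every gene tested and 948 and 612 with the replicate block. The 332 become 138 to 214 without any 1 of 6 libraries: the first or second neuron WT control, the second neuron WT TM, the third neuron Perk KO control, the first neuron Perk KO TM or the second astrocyte Perk KO control library. Of the cholesterol genes, 11 of 24 were called, all more negative in WT, where the median was −1.05 beside −0.46 in Perk KO. Hmgcs1 had an interaction of −1.84 in WT and −0.75 in Perk KO, a difference of −1.08 ± 0.21 (adjusted p = 0.00296). Of the 6 linker histones 3 were called, or 6 with DESeq2, and medians were 2.65 and 0.60. Of the 21 PERK-arm targets, Gdf15, Bbc3 and Ndrg1 were the 3 called, or 7 with the replicate block, with medians of 1.29 in WT and 0.55 in Perk KO. Within Perk KO, 6 of the 21 were still called more upward in neurons, beside 946 of all 15924 genes. Bbc3 and Ndrg1 were among these 6, at 1.68 and 1.88 in Perk KO beside 2.65 and 2.99 in WT. For Trib3 the interaction was 2.36 and 0.76, and the difference, 1.60 ± 0.53, missed the threshold (adjusted p = 0.0825). Proteasome medians were −0.62 and −0.08, with 4 of 31 called, a count that ranges from 1 to 9 with 1 library left out.

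**Figure D5:**
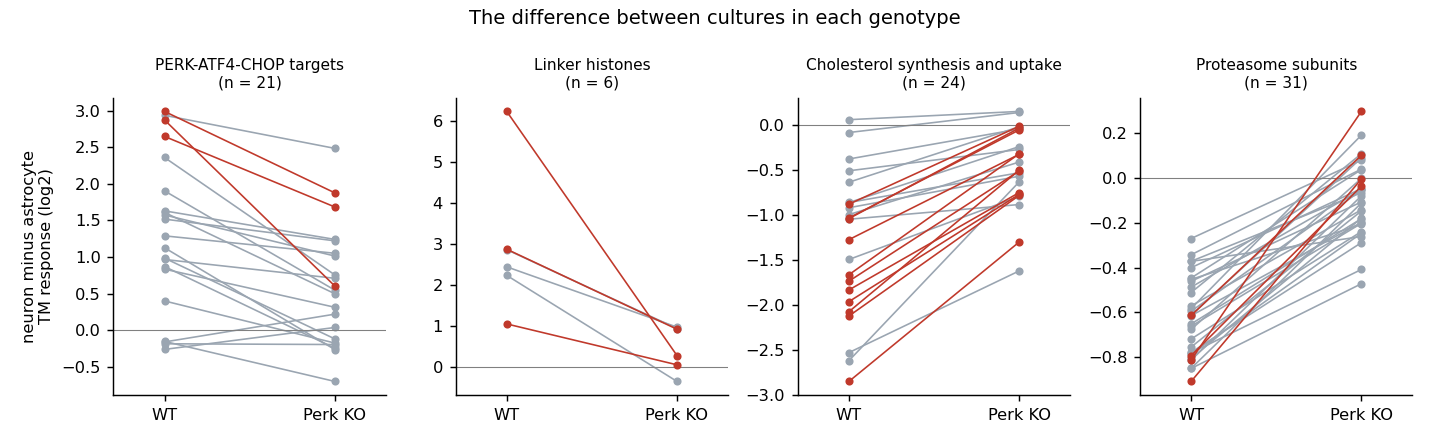
Neuron minus astrocyte TM response (log2) in WT and in Perk KO for each member of 4 gene lists, joined by lines, from the fit over 24 libraries. Red lines mark members whose interaction differed between genotypes (adjusted p under 0.05). Most cholesterol and proteasome values lie nearer 0 in Perk KO.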

How the data were processed

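Bulk RNA-seq was made from total RNA with paired-end reads; the strand setting of the counting is not given in the sources used here. Gene counts were deposited by the authors as raw read counts. Per the submitters' processing notes, fastp, HISAT2, featureCounts, DESeq2 and GRCm38.p6 were used, and versions are not given in the sources used here. Counts of a library that stands in several tables were compared, and 0 of 595092 differed.

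Counts were analysed with edgeR 4.0.16 (limma 3.58.1, R 4.3.3): TMM over the 12 WT libraries, a minimum mean of 10 counts per gene, a quasi-likelihood F test of culture, treatment and their interaction, and a Benjamini-Hochberg threshold of 0.05. Standard errors are |log2 fold change| divided by the root of F. DESeq2 1.42.0 was an alternative. The script was tested on simulated counts, where large differences were recovered fully and smaller ones only in part, so a missed call does not show equality. Depth, 16030022 to 20528319 counts per library, limits genes with few counts. Between same-numbered control and TM libraries, deviations correlated at 0.65, 0.42 and 0.57 in astrocytes, so the numbers pair those libraries by the data, as the labels name no shared source.

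The members and lists were chosen with earlier results of these data known. Named genes were 30 fixed genes, the 4 protein-coding genes with the largest interaction in each response pattern (for alike genes the largest response) with a mean of 100 counts overall and 20 in each culture, up to 4 members per list by smallest p and list members against the rest, and markers; other members are named only as exceptions or by list, and some genes that the rule names are not reported here. The level contrasts, the GC correction and the promoter stretches were chosen after seeing the data, and the stretches shown were picked among genes with a match.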

Additional observations from a re-analysis of the deposited data

Results flagged for a closer look

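The TM response differed between neuron and astrocyte cultures for 3917 genes by the interaction test, and that interaction differed between WT and Perk KO for 878 genes. Among the fixed genes, the neuron minus astrocyte response was more positive in WT than in Perk KO for Gdf15, by 2.27 log2 (adjusted p = 0.0127), and for Hspa5, by 1.02 (adjusted p = 0.0477). It was more negative in WT for Hmgcs1, at −1.08 (adjusted p = 0.00296), and for Tubb3, at −1.96 (adjusted p = 0.00451). These p-values come from edgeR's quasi-likelihood test over 24 libraries.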

How the results depend on the processing

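The count of 3917 differing genes ranged from 3064 to 4450 with 1 library left out, and was 4803 with the replicate number as a block, 4596 with DESeq2, 3853 with every gene tested and 3942 with TMM within each kind of culture. Of the 195 named genes called, 40 lose the call with some library left out, 24 with TMM within each kind of culture and 21 with every gene tested. None of the 238 named genes tested changed sign in an alternative while called in the main fit or in that alternative. Sign changes of genes called in neither were not counted. In neurons same-numbered control and TM libraries correlated at 0.33, −0.46 and −0.36, so the numbers do not pair them. Values were higher for the second control with the third TM library, 0.49, and the third control with the second TM library, 0.53. The replicate block used the numbers in both kinds of culture, so in neurons it sets pairs that these values do not bear out. The main fit used no pairing in either kind of culture. With the replicate block, genes that fell in both numbered 210 (more in neurons) and 829 (more in astrocytes), and the genotype dependence covered 1560 genes, or 1531 with DESeq2. With TMM within each kind of culture, 271 genes rose in both but more in neurons, 541 rose in neurons with no call in astrocytes, 75 fell in both but more in neurons, 343 fell in neurons with no call in astrocytes, 256 rose in neurons and fell in astrocytes and 167 did the reverse, and 6 ER-Golgi and 16 proteasome genes were called. With every gene tested, the counts were 108 (rose in both, more in astrocytes), 547 (rose in neurons, no call in astrocytes), 61 (fell in both, more in neurons), 360 (fell in neurons, no call in astrocytes), 130 (fell in neurons, rose in astrocytes), 4 (ER-Golgi) and 12 (proteasome). A GC correction with the replicate block, added after seeing the data, gave 388 and 346 that rose in both (more in neurons, more in astrocytes), 562 that rose in neurons with no call in astrocytes, 278 and 1055 that fell in both (more in neurons, more in astrocytes) and 316 that rose in neurons and fell in astrocytes. The cause of these shifts was not tested.

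With 1 library left out, called genes ranged from 6239 to 8051 in neurons, 7233 to 8668 in astrocytes and 623 to 1149 for the genotype dependence. Rises in both ranged from 111 to 195 (more in neurons) and 109 to 221 (more in astrocytes), rises with a call in 1 culture from 217 to 479 (neurons) and 374 to 734 (astrocytes), falls in both from 79 to 154 and 381 to 672, falls with a call in 1 culture from 457 to 687 and 607 to 849, and opposite changes from 97 to 198 and 174 to 363. List counts ranged from 14 to 17 (PERK-arm targets), 3 to 8 (chaperones), 6 to 12 (ER-Golgi), 19 to 20 (cholesterol), 16 to 28 (proteasome), 10 to 13 (heat shock) and 6 to 6 (linker histones). These 7 lists were picked for this check after their counts were seen. Fits on 1 kind of culture alone called 8055 genes in neurons and 7859 in astrocytes. Depth limits genes with few counts, and 313 of the called genes averaged under 20 counts in 1 of the cultures.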

Other observations

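Most glycolysis genes fell in each culture, by amounts that differed for some. Of 22 tested, 16 fell in neurons and 13 in astrocytes (29.4% and 28.7% of all tested genes). The interaction was called for 6 more upward in neurons and 5 more downward (12.4% and 12.5% of all). Ldha, a lactate dehydrogenase subunit, went from 846, 812 and 603 CPM to 172, 157 and 166 CPM in neurons and from 305, 256 and 252 CPM to 167, 143 and 140 CPM in astrocytes. Its interaction was −1.34 ± 0.19 (edgeR adjusted p = 0.000396). Ldhb, the other subunit, fell further in astrocytes, from 1110, 821 and 783 CPM to 197, 139 and 114 CPM, with an interaction of 1.37 ± 0.26 (adjusted p = 0.00278). Hk2, a hexokinase, rose in both and more in neurons, by 3.00 and 1.58.

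Of 20 NRF2 and oxidative stress genes, 8 were more upward in neurons (12.4% of all tested genes). They included Gstm1, a glutathione transferase, at 1.5 ± 0.16, and Osgin1 at 1.55 ± 0.23 (edgeR adjusted p = 6.86e-05 and 0.000618). Prdx1 and Sod2 were more downward (12.5% of all). Igfbp5, a secreted growth factor binding protein, fell from 3070, 2600 and 2120 CPM to 68.2, 66.4 and 55.6 CPM in astrocytes and from 625, 716 and 749 CPM to 61.4, 83.6 and 123 CPM in neurons, with an interaction of 2.39 ± 0.30 (adjusted p = 0.000204). Tfrc, the transferrin receptor, fell by 2.13 in neurons and changed by 0.56 in astrocytes, which missed the threshold (adjusted p = 0.0507).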
